A study of Mus musculus with 8 samples.

Results

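The genes described are 10 secreted signals of skeletal muscle satellite cells: the CXC chemokines Cxcl1, Cxcl2, Cxcl10 and Cxcl12, the CC chemokines Ccl2 and Ccl7, the cytokines Csf1, Il6 and Lif, and the pentraxin Ptx3. They were taken by symbol from a table of 24328 genes, and all 10 had a row. Satellite cells are the stem cells of skeletal muscle. RNA was sequenced from 8 libraries in 4 groups of 2, all from C57BL/6 mice aged 2 months. PFA-perfused cells (genotype Pax7-nGFP) came from mice perfused with paraformaldehyde, which fixes the tissue before it is taken apart. PBS-perfused cells (also Pax7-nGFP) were taken after perfusion with buffer instead. Unperfused cells (wild type) had no perfusion at all. Injury-activated cells (wild type) came from unperfused mice 2.5 days after an injury, whose agent the labels do not give. Pax7-nGFP mice carry a nuclear green fluorescent protein under the control of Pax7, the defining transcription factor of satellite cells. Per the labels, dissociated cells were stained for Vcam, CD31, CD45 and Sca-1 and sorted. Fixed cells were released with more collagenase than unfixed cells and their RNA was isolated with a kit made for paraffin-embedded samples, so fixation, digestion and RNA kit cannot be told apart in any comparison with PFA-perfused cells. Genotype and perfusion cannot be told apart in any comparison of PFA-perfused or PBS-perfused cells with unperfused or injury-activated cells.

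Chemokines are small secreted proteins that steer the migration of cells carrying matching receptors. CXCL1 and CXCL2 attract neutrophils through CXCR2, CXCL10 attracts activated T cells through CXCR3, and CCL2 and CCL7 attract monocytes through CCR2. CXCL12 is a homeostatic chemokine, made without a stimulus, whose receptor is CXCR4 and which ACKR3 also binds. CSF1 keeps macrophages alive through CSF1R. IL-6 and LIF signal through receptors that share gp130, the product of Il6st, and activate STAT3. PTX3 is a secreted pattern recognition protein that is induced by inflammatory stimuli. Several of these genes are textbook targets of NF-kB, and several of their messenger RNAs carry AU-rich elements, which mark an RNA for rapid decay. Muscle stem cells are known to change their RNA quickly when muscle is digested.

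The start regions of some members are shown as the sequence context of the genes compared. RefSeq promoter sequences on GRCm38.p6 were at hand for 8 of the 10 members, all but Ccl2 and Ccl7. In the 250 bases before the start, searched on both strands, 5 of the 8 (Cxcl1, Cxcl2, Cxcl10, Csf1 and Il6) held a match to the kappaB consensus, the sequence that NF-kB binds, against 3.90% of 32851 promoters in the table. Shown are the last 170 bases before the start of these 5 genes and of Cxcl12, 5′ to 3′ on the strand of the gene, with kappaB matches in capitals. Their positions are chr5:90891075-90891244 for Cxcl1 (plus strand), chr5:90903729-90903898 for Cxcl2 (plus strand), chr5:92348890-92349059 for Cxcl10 (minus strand), chr3:107760470-107760639 for Csf1 (minus strand), chr5:30012944-30013113 for Il6 (plus strand) and chr6:117168365-117168534 for Cxcl12 (plus strand).
Cxcl1: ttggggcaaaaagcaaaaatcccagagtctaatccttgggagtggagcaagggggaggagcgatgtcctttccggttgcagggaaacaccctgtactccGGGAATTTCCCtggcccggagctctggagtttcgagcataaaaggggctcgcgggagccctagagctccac
Cxcl2: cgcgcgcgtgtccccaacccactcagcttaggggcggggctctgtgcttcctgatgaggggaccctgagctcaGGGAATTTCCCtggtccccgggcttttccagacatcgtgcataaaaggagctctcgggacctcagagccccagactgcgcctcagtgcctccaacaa
Cxcl10: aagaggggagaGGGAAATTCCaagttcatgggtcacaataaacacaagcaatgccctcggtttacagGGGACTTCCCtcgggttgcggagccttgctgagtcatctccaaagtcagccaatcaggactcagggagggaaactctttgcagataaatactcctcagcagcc
Csf1: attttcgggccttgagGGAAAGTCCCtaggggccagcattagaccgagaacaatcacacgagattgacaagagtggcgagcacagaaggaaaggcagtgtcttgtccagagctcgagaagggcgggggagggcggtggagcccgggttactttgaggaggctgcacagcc
Il6: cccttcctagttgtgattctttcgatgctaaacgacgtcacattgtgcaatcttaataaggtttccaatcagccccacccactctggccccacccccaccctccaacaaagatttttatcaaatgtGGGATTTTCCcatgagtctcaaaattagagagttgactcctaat
Cxcl12: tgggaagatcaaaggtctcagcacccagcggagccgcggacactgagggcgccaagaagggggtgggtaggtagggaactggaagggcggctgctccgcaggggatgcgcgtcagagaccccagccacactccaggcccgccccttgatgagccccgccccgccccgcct

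The capitals of Cxcl1 and Cxcl2 spell the same 11 bases, which hold 2 overlapping matches. In Cxcl1 they lie 71 to 61 bases before the start and in Cxcl2 97 to 87 bases before it. Cxcl10 held 2 separate matches, and Csf1 and Il6 held 1 each, that of Il6 44 to 35 bases before the start. Neither Cxcl12, Lif nor Ptx3 held one. AP-1 (TGANTCA) matched in Cxcl10, Il6 and Lif, 3 of 8 members against 6.75% of promoters, and C/EBP (TTGCNNAA) in Il6 and Ptx3, 2 of 8 against 9.56%. The interferon response element matched in Cxcl10 alone, with 2.98% of promoters holding it. CRE (TGACGTCA), STAT (TTCNNNGAA), a heat shock element pair (GAANNTTC) and TATAAA matched in none of the 8, against 1.55, 7.02, 6.69 and 12.4% of promoters. No match of 1 motif overlapped that of another in these genes. A match describes the letters, not binding.

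The unit is read as FPKM, a fragment count scaled by library size and by the length of the transcript, and values were compared as log2(FPKM + 1). A gene was called higher or lower at a Benjamini-Hochberg adjusted p under 0.05, from limma fitted to the 12515 genes that reached 1 FPKM in at least 2 libraries. All 10 members passed that filter. Fold changes are differences of log2(FPKM + 1) ± SE, and every one given with an SE for a gene outside the 10 was called. They understate the change of genes near 0. FPKM summed to 461454 to 582336 per library, no counts were used, and the depth behind a value is unknown. Whether a group's 2 libraries stem from different animals is not given in the labels. The p-values therefore reflect library-to-library spread alone, part of which can be technical. Because RNA of sorted cells was measured in bulk, more cells that express a gene and more RNA per cell cannot be told apart.

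Of the markers that the sort used, Vcam1 stood at 128 and 84.3 FPKM in PFA-perfused, 329 and 390 in PBS-perfused, 145 and 95.97 in unperfused and 241 and 234 in injury-activated cells. Pax7 was present in all 8 libraries, at 328 and 567 FPKM in PFA-perfused and 4.40 to 79.6 in the other 6. Among 10 satellite cell markers, these 2 included, 2 were called higher and 5 lower in PBS-perfused against PFA-perfused cells (17.8 and 46.2% of all genes). The counts were 4 and 5 in unperfused against PFA-perfused cells (17.4 and 56.3%) and 1 and 7 in injury-activated against unperfused cells (40.8 and 29.3%). Ptprc, which encodes CD45, reached at most 0.250 FPKM. Pecam1, which encodes CD31, was at 33.9 and 19.7 FPKM in PBS-perfused cells and at 1.06 to 3.13 elsewhere, and Ly6a, which encodes Sca-1, was at 17.7 and 19.3 against 0.535 to 8.40 elsewhere. The ribosomal precursor Rn45s took 9.80 and 19.4% of all FPKM in PFA-perfused cells, 0.893 and 6.64% in PBS-perfused cells and at most 0.363% in the other groups, and its part in the results was not tested. Over all tested genes the median log2 fold change was -0.50 for PBS-perfused against PFA-perfused, -0.81 for unperfused against PFA-perfused, -0.36 for unperfused against PBS-perfused, -0.48 for injury-activated against PFA-perfused, -0.11 for injury-activated against PBS-perfused and 0.17 for injury-activated against unperfused. With libraries scaled to a common trimmed mean of ratios, these medians moved to -0.14, -0.13, -0.05, 0.11, 0.14 and 0.09.

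In PBS-perfused and unperfused cells, 9 of the 10 signals were above their level in fixed cells, and Cxcl12 was below it. Against PFA-perfused cells, 9 members were called higher in PBS-perfused cells (17.8% of all tested genes were) and 1 was called lower (46.2%). The same 9 were called higher in unperfused cells (17.4% of all genes) and the same 1 lower (56.3%). These comparisons share the PFA-perfused libraries. The median log2 fold change of the members was 5.35 and 3.87. In the fit with trimmed mean scaling the share of all genes called higher and lower became more even, with 3100 higher and 3978 lower in place of 2225 and 5783 for PBS-perfused and 3885 and 4717 in place of 2173 and 7043 for unperfused cells. In that fit 9 members were called higher in both comparisons, and Cxcl12 was called lower in unperfused but not in PBS-perfused cells (-0.23, limma adjusted p = 0.404).

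PBS-perfused cells, which were flushed with buffer but not fixed, held the top level of 8 members. Between unperfused and PBS-perfused cells, 9 members were called lower in unperfused cells (36.5% of all genes) and none higher (13.1%), with a median of -1.55. With trimmed mean scaling 6 of the 10 were called lower, and all genes split into 2786 higher and 3036 lower in place of 1643 and 4562. Injury-activated cells sat lower still for some signals. Against PBS-perfused cells 9 members were called lower (38.8% of all genes) and none higher (34.4%), with a median of -2.17. Against PFA-perfused cells 7 were called higher (26.1%), 1 lower (47.3%) and 2, Il6 and Ptx3, neither way, with a median of 2.86. With that scaling Ptx3 was called higher as well, and all genes split into 4997 higher and 4212 lower in place of 3272 and 5925. Against unperfused cells 2 members were called higher (40.8%) and 5 lower (29.3%), with a median of -0.30.

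**Figure D1:**
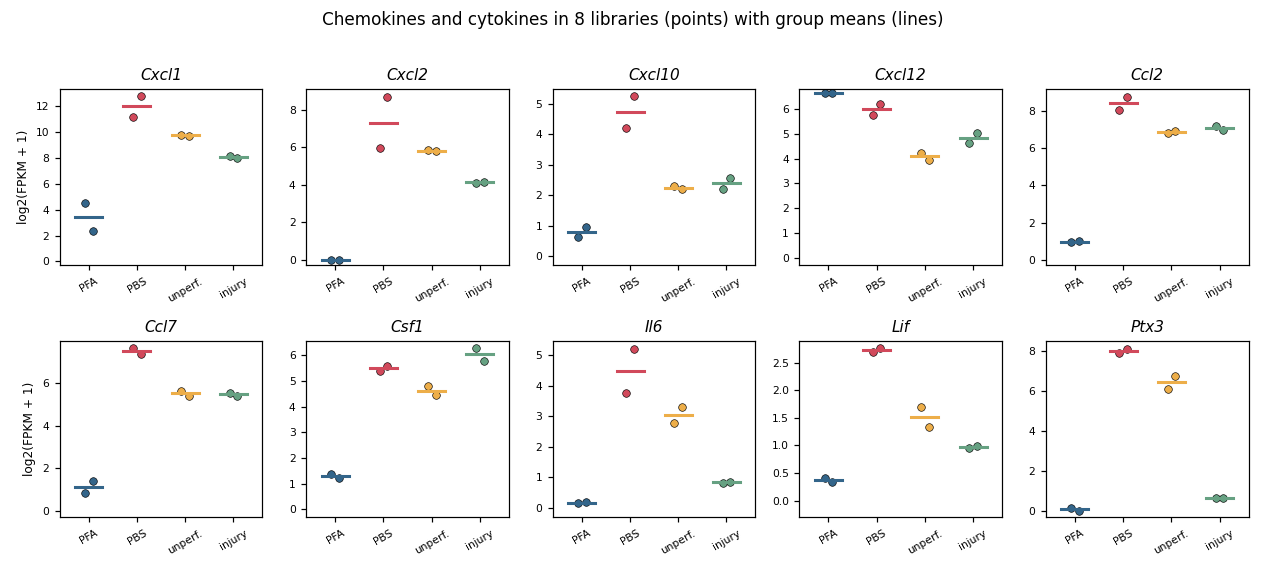
FPKM of the 10 members on a log2(FPKM + 1) axis (each panel has its own scale), with 1 point per library and a line at the group mean. PFA-perfused libraries are the lowest in every panel but that of Cxcl12, where they stand at 99.95 and 99.89 FPKM, above the other 6.

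Together the 10 genes made up 0.0221 and 0.0188% of all FPKM in PFA-perfused cells, 0.616 and 1.56% in PBS-perfused, 0.253 and 0.264% in unperfused and 0.108 and 0.0954% in injury-activated cells. Which gene made up that sum differed. Cxcl12 took 78.8 and 91.4% of it in PFA-perfused cells, while Cxcl1 took 72.9 and 82.9% in PBS-perfused, 72.1 and 69.5% in unperfused and 47.0 and 47.8% in injury-activated cells. On this per-length scale Cxcl1 was among the most abundant RNAs of the PBS-perfused libraries, at rank 21 and rank 4 of all 24328 genes. It held rank 57 and 66 in unperfused, 356 and 398 in injury-activated and 3641 and 8605 in PFA-perfused cells.

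Cxcl1, the main neutrophil attractant of the set, was at 22.5 and 4.14 FPKM in PFA-perfused, 2377 and 7159 in PBS-perfused, 878 and 848 in unperfused and 278 and 251 in injury-activated cells. No 2 groups overlapped, and the order was PBS-perfused, unperfused, injury-activated and PFA-perfused. Against PFA-perfused cells Cxcl1 rose by 8.55 ± 0.68 in PBS-perfused cells (limma adjusted p = 2.67e-05). It rose by 6.30 ± 0.68 in unperfused (3.43e-05) and by 4.60 ± 0.68 in injury-activated cells (2.37e-04), by the same limma test. The libraries of the 2 perfused groups were spread widely, by 5.43-fold in PFA-perfused and 3.01-fold in PBS-perfused cells, against 1.04-fold in unperfused and 1.11-fold in injury-activated cells. Unperfused cells were lower than PBS-perfused cells by -2.26 ± 0.68 (limma adjusted p = 0.0220), a call that was lost with trimmed mean scaling (adjusted p = 0.0505), with quantile normalization (0.0657), with no filter on low values (0.0967) and without PBS-perfused replicate 2 (-1.46, adjusted p = 0.151) or unperfused replicate 1 (0.0875) or 2 (0.107). Injury-activated cells were lower than PBS-perfused cells by -3.96 ± 0.68 (limma adjusted p = 6.3e-04). They were lower than unperfused cells by -1.70 ± 0.68 (limma adjusted p = 0.0486), and that call did not survive leaving out any 1 of the 4 libraries compared (adjusted p = 0.0984 to 0.158), nor fitting without the filter (0.158) or with a pseudocount of 0.1 (0.0570).

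Cxcl2, a close relative with the same receptor, had a listed value of 0 in each PFA-perfused library. It was at 61.8 and 406 FPKM in PBS-perfused, 57.0 and 54.3 in unperfused and 16.3 and 16.6 in injury-activated cells. The higher PBS-perfused library stood apart from all others, and the lower one was close to the unperfused libraries. No fold is given against a group at 0. Cxcl2 was called higher than in PFA-perfused cells in all 3 unfixed groups (limma adjusted p = 4.32e-05, 4.6e-05 and 3.87e-04 for PBS-perfused, unperfused and injury-activated cells). Unperfused and PBS-perfused cells were not told apart (-1.497 ± 0.66, 95% interval -2.99 to 0.00, limma adjusted p = 0.0887). That difference was -0.15 without PBS-perfused replicate 2, and without replicate 1 it was -2.85 and called (limma adjusted p = 7.85e-05). Injury-activated cells were lower than unperfused cells by -1.70 ± 0.66 (limma adjusted p = 0.0441), a call lost without any 1 of 6 libraries, those of the PFA-perfused group included (adjusted p = 0.0591 to 0.158), and with no filter (0.152).

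Within a library, Cxcl1 was 15.1 to 17.6 times as abundant as Cxcl2 in 5 of the 6 unfixed libraries, although their levels spanned a wide range. PBS-perfused replicate 1 was the exception at 38.5. Of 12 other CXC and CX3C chemokines, 8 passed the filter, and in PBS-perfused against PFA-perfused cells 6 of these were called higher and none lower, with a median of 1.61. In unperfused against PBS-perfused cells all 8 were called lower (6 of 8 with trimmed mean scaling). The shares of all tested genes were 17.8% higher and 46.2% lower in the first comparison and 36.5% lower in the second. Cxcl3, which also attracts neutrophils, was at a listed 0 in PFA-perfused cells and stood at 11.8 and 49.0 FPKM in PBS-perfused, 3.15 and 4.66 in unperfused and 2.59 and 2.56 in injury-activated cells. Cxcl5, of the same subgroup, rose by 4.45 ± 0.25 from PFA-perfused to PBS-perfused cells, where it was at 21.5 and 25.5 FPKM. Cxcl16, a membrane-bound chemokine, was at 38.3 and 55.9 FPKM in PBS-perfused and 1.82 and 1.90 in injury-activated cells. Cxcr1 and Cxcr2, the receptors of the neutrophil attractants, did not pass the filter and were at most at 0.0179 FPKM in any library.

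Cxcl10, an interferon-inducible chemokine, was at 0.543 and 0.957 FPKM in PFA-perfused, 17.2 and 36.8 in PBS-perfused, 3.92 and 3.57 in unperfused and 3.61 and 4.96 in injury-activated cells. PBS-perfused cells stood above and PFA-perfused cells below, while unperfused and injury-activated libraries overlapped. The rise over PFA-perfused cells was 3.92 ± 0.33 in PBS-perfused (limma adjusted p = 3.12e-05), 1.45 ± 0.33 in unperfused (0.00294) and 1.59 ± 0.33 in injury-activated cells (0.00173). Unperfused cells were lower than PBS-perfused ones by -2.47 ± 0.33 and injury-activated cells by -2.32 ± 0.33 (limma adjusted p = 2.92e-04 and 1.77e-04). Injury-activated and unperfused cells differed by 0.15 with a 95% interval of -0.59 to 0.88, and that sign turned with quantile normalization or without injury-activated replicate 2. Cxcl9, a related ligand of the same receptor, was at 3.42 and 3.30 FPKM in PBS-perfused, 1.60 and 1.495 in unperfused and at most 0.192 in the other 2 groups. Their receptor Cxcr3 was at most at 0.105 FPKM.

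Genes of the interferon response did not move as 1 block with Cxcl10. Of 16, 13 were tested, and in PBS-perfused against PFA-perfused cells 6 were called higher, 2 lower and 5 neither way (6 higher and none lower with trimmed mean scaling). The shares of all tested genes were 17.8% higher and 46.2% lower. The guanylate-binding proteins led, with Gbp2 at 7.70 and 8.22 FPKM in PFA-perfused, 98.6 and 90.5 in PBS-perfused, 50.3 and 45.0 in unperfused and 4.08 and 3.81 in injury-activated cells. Gbp3 rose by 1.90 ± 0.19, and Ifit1 and Mx2, both antiviral effectors, by 1.18 ± 0.22 and 1.15 ± 0.16. In injury-activated against unperfused cells 8 were called lower (29.3% of all genes) and 3 higher (40.8%), among them Gbp2 at -3.30 ± 0.19 and Ifit2 at 2.11 ± 0.30.

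Ccl2, the chief monocyte attractant, was at 0.918 and 0.984 FPKM in PFA-perfused, 262 and 438 in PBS-perfused, 110 and 119 in unperfused and 145 and 123 in injury-activated cells. All 6 unfixed libraries were more than 100 FPKM above the fixed ones. Ccl2 rose over PFA-perfused cells by 7.45 ± 0.27 in PBS-perfused, 5.89 ± 0.27 in unperfused and 6.11 ± 0.27 in injury-activated cells (limma adjusted p = 1.21e-06, 6.96e-07 and 3.45e-07). It was lower than in PBS-perfused cells by -1.56 ± 0.27 in unperfused and by -1.34 ± 0.27 in injury-activated cells (limma adjusted p = 0.00126 and 0.00152). Injury-activated and unperfused cells were not told apart (0.22, 95% interval -0.38 to 0.82, limma adjusted p = 0.481), and the sign turned with quantile normalization.

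Ccl7, encoded in the same chemokine cluster and acting on the same receptor, was at 0.760 and 1.63 FPKM in PFA-perfused, 196 and 165 in PBS-perfused, 48.9 and 41.6 in unperfused and 45.3 and 41.5 in injury-activated cells. The last 2 groups overlapped. Ccl7 rose over PFA-perfused cells by 6.39 ± 0.24, 4.42 ± 0.24 and 4.37 ± 0.24 in PBS-perfused, unperfused and injury-activated cells (limma adjusted p = 1.56e-06, 1.22e-06 and 8.14e-07). It was lower than in PBS-perfused cells by -1.97 ± 0.24 in unperfused and -2.02 ± 0.24 in injury-activated cells (limma adjusted p = 2.05e-04 and 6.9e-05). Between injury-activated and unperfused cells the difference was -0.05, with a 95% interval of -0.61 to 0.50, and its sign turned without unperfused replicate 1 or injury-activated replicate 2. Ccl2 was 1.34 and 2.66 times as abundant as Ccl7 in PBS-perfused, 2.25 and 2.86 times in unperfused and 3.20 and 2.97 times in injury-activated libraries.

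Of 16 other CC chemokines listed, 9 were tested, and in PBS-perfused against PFA-perfused cells 5 were called higher (17.8% of all genes) and none lower (46.2%). Ccl4 was listed at 0 in PFA-perfused and unperfused libraries and stood at 2.41 and 8.14 FPKM in PBS-perfused and 1.00 and 1.03 in injury-activated cells. Ccl11, the eosinophil attractant eotaxin, was at 3.06 and 6.32 FPKM in PFA-perfused, 27.6 and 29.4 in PBS-perfused, 15.2 and 6.25 in unperfused and 1.31 and 1.41 in injury-activated cells. Ccl19, a lymphoid chemokine, went another way, at 30.1 and 19.6 FPKM in PFA-perfused, 35.9 and 25.4 in PBS-perfused, 5.06 and 6.73 in unperfused and 0.193 and 0.202 in injury-activated cells. In injury-activated against unperfused cells 5 of the 9 were called higher (40.8% of all genes) and 4 lower (29.3%). Ccl6, made largely by myeloid cells, led the rises by 2.52 ± 0.21. The macrophage genes Lyz2, at 42.9 and 44.0 FPKM in injury-activated and 0.390 and 0.320 in unperfused cells, and Adgre1, at 1.67 and 2.00 against 0 and 0, moved with it. Cd68 went the other way, at 8.465 and 11.5 against 32.1 and 22.98. Among 8 tested macrophage and blood cell markers, 7 were called higher and 1, Cd68, lower. The part of these genes in the result was not tested. The receptors Ccr1, Ccr2 and Ccr3 did not pass the filter and reached at most 0.726 FPKM, in injury-activated cells for Ccr1.

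Cxcl12 was the exception among the members. It was at 99.95 and 99.89 FPKM in PFA-perfused, 53.8 and 72.1 in PBS-perfused, 17.9 and 14.5 in unperfused and 23.6 and 31.9 in injury-activated cells. The groups did not overlap, and the order was PFA-perfused, PBS-perfused, injury-activated and unperfused. It was lower than in PFA-perfused cells by -2.56 ± 0.24 in unperfused and -1.83 ± 0.24 in injury-activated cells (limma adjusted p = 1.66e-05 and 1.21e-04). The difference between PBS-perfused and PFA-perfused cells was -0.67 ± 0.24 (limma adjusted p = 0.0361), near the median of all genes at -0.50. It was -0.23 with trimmed mean scaling (adjusted p = 0.404). The call was also lost with only the 2 groups fitted (adjusted p = 0.0541) or no filter (0.0531), and it was lost without any 1 of 5 libraries (adjusted p = 0.0600 to 0.165), namely either PFA-perfused, PBS-perfused replicate 1 or either injury-activated library. Cxcl12 was lower in unperfused than in PBS-perfused cells by -1.88 ± 0.24 and in injury-activated than in PBS-perfused cells by -1.15 ± 0.24 (limma adjusted p = 2.56e-04 and 0.00213). It was higher in injury-activated than in unperfused cells by 0.73 ± 0.24 (limma adjusted p = 0.0229), a call lost with quantile normalization (0.25, adjusted p = 0.338), without unperfused replicate 2 (adjusted p = 0.0976) or without injury-activated replicate 2 (0.218).

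The receptors of Cxcl12 were measured well above 0. Cxcr4, the signalling receptor, was at 2.46 and 3.58 FPKM in PFA-perfused, 2.00 and 1.31 in PBS-perfused, 17.2 and 23.0 in unperfused and 2.93 and 2.55 in injury-activated cells. Unperfused cells therefore held the lowest ligand and the highest receptor level. Cxcr4 was higher there than in PFA-perfused cells by 2.39 ± 0.24 and than in PBS-perfused cells by 2.99 ± 0.24, and it was lower in injury-activated than in unperfused cells by -2.48 ± 0.24. Ackr3, which takes up Cxcl12, was at 70.9 and 38.1 FPKM in PFA-perfused, 193 and 127 in PBS-perfused, 38.5 and 36.5 in unperfused and 37.2 and 30.0 in injury-activated cells. It rose from PFA-perfused to PBS-perfused cells by 1.57 ± 0.33 and was lower than in PBS-perfused cells by -2.03 ± 0.33 in unperfused and -2.19 ± 0.33 in injury-activated cells. Ackr1, which binds many chemokines and is known from venous endothelium, was at 9.63 and 4.13 FPKM in PBS-perfused cells and at most 0.631 elsewhere.

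**Figure D2:**
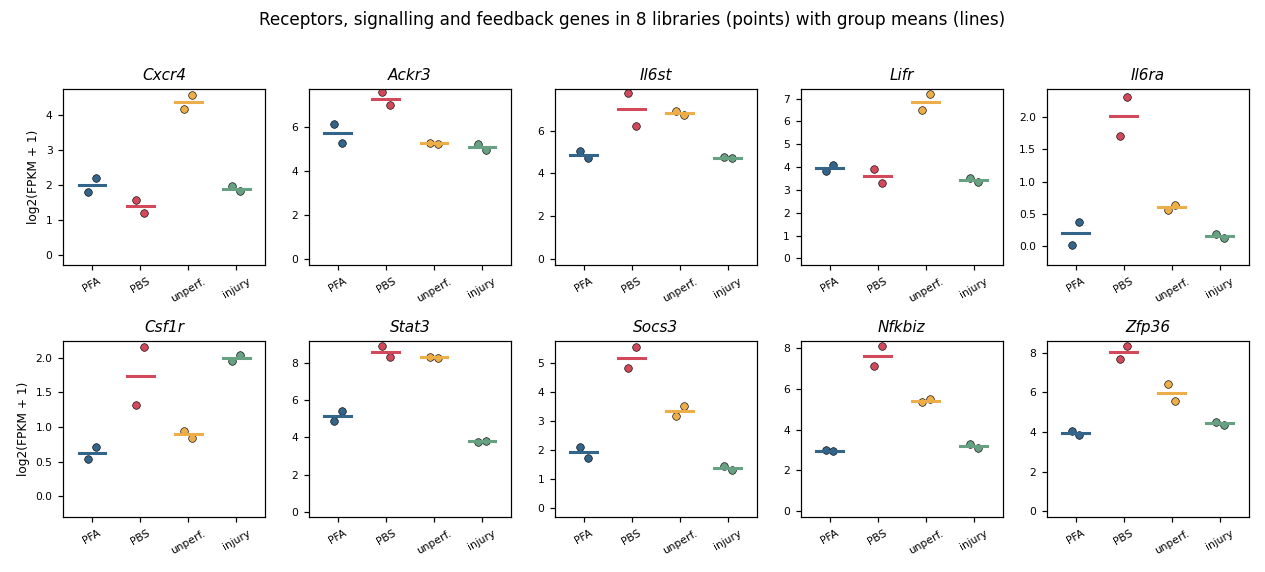
Receptors, signalling and feedback genes on a log2(FPKM + 1) axis (each panel has its own scale), with 1 point per library and a line at the group mean. Cxcr4 and Lifr are highest in unperfused cells, at 17.2 and 23.0 and at 88.2 and 147 FPKM, while Socs3, Nfkbiz and Zfp36 are highest in PBS-perfused cells.

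Csf1, the macrophage growth factor, was the only member with its top level after injury. It was at 1.60 and 1.31 FPKM in PFA-perfused, 41.3 and 47.5 in PBS-perfused, 26.7 and 20.7 in unperfused and 77.2 and 53.8 in injury-activated cells. No groups overlapped, although the lower injury-activated library was close to the higher PBS-perfused one. Csf1 rose over PFA-perfused cells by 4.21 ± 0.24, 3.32 ± 0.24 and 4.74 ± 0.24 in PBS-perfused, unperfused and injury-activated cells (limma adjusted p = 7.17e-06, 4.13e-06 and 5.62e-07). It was higher in injury-activated than in unperfused cells by 1.42 ± 0.24 (limma adjusted p = 5.94e-04), a call kept in all 15 alternatives (0.91 to 1.67). Injury-activated and PBS-perfused cells were not told apart (0.53, 95% interval -0.01 to 1.08, limma adjusted p = 0.0721), though with trimmed mean scaling the difference was 0.88 and called (adjusted p = 0.00386). Unperfused cells were lower than PBS-perfused cells by -0.89 ± 0.24 (limma adjusted p = 0.0138), a call lost with that scaling (-0.41, adjusted p = 0.136), without PBS-perfused replicate 2 (0.0583) or without unperfused replicate 2 (0.0769).

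Il34, the other ligand of the same receptor, was at 28.4 and 23.9 FPKM in injury-activated cells and at 0.676 to 3.16 in the other 6 libraries. Csf1 was 2.72 and 2.25 times as abundant as Il34 after injury and 13.5 to 30.6 times in the other 4 unfixed libraries. The receptor Csf1r was at 0.457 and 0.633 FPKM in PFA-perfused, 1.49 and 3.45 in PBS-perfused, 0.929 and 0.789 in unperfused and 2.85 and 3.10 in injury-activated cells. It is also a macrophage marker. The summed level of the 12 macrophage and blood cell markers in the table was 7.80 to 7.81 FPKM in PFA-perfused, 54.3 to 59.0 in PBS-perfused, 29.6 to 40.0 in unperfused and 75.2 to 84.9 in injury-activated libraries. Csf1r is itself one of them. Of the 8 tested, all were called higher in injury-activated than in PFA-perfused cells (26.1% of all genes). Against unperfused cells 7 were called higher (40.8%) and 1, Cd68, lower (29.3%). In unperfused cells Cd68 made up most of the sum, at 32.1 and 22.98 FPKM, and Adgre1 was at 0. Ptprc and Itgam reached at most 0.250 and 0.430 FPKM in any library. The part of these markers in the Csf1r result was not tested.

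Il6 was at 0.112 and 0.147 FPKM in PFA-perfused, 12.6 and 35.9 in PBS-perfused, 5.93 and 8.96 in unperfused and 0.756 and 0.817 in injury-activated cells. It was the member in which PBS-perfused libraries differed most after Cxcl2 and Cxcl1, by 2.85-fold, and no groups overlapped. Il6 rose over PFA-perfused cells by 4.31 ± 0.40 in PBS-perfused and by 2.88 ± 0.40 in unperfused cells (limma adjusted p = 4.78e-05 and 1.52e-04). Injury-activated and PFA-perfused cells were not told apart at 0.66 (95% interval -0.24 to 1.56, limma adjusted p = 0.160), a difference that was called with a pseudocount of 0.1 (1.96, adjusted p = 0.00364) and without PBS-perfused replicate 1 (adjusted p = 0.0171) or 2 (0.0160). It was lower in injury-activated cells than in PBS-perfused cells by -3.65 ± 0.40 and than in unperfused cells by -2.22 ± 0.40 (limma adjusted p = 3.74e-05 and 8.35e-04). The difference of unperfused from PBS-perfused cells was -1.43 ± 0.40 (limma adjusted p = 0.0153). That call was lost with trimmed mean scaling (-0.99, adjusted p = 0.0807), quantile normalization (-1.02, 0.0937) or no filter (0.0738), and without unperfused replicate 1 (-1.17, adjusted p = 0.107).

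Lif, the other gp130 ligand of the set, was low throughout. It was at 0.321 and 0.267 FPKM in PFA-perfused, 5.42 and 5.80 in PBS-perfused, 2.22 and 1.52 in unperfused and 0.932 and 0.978 in injury-activated cells, again with no overlap. It rose over PFA-perfused cells by 2.35 ± 0.17 in PBS-perfused, 1.14 ± 0.17 in unperfused and 0.60 ± 0.17 in injury-activated cells (limma adjusted p = 1.88e-05, 2.56e-04 and 0.0111). The last call was lost without PFA-perfused replicate 2 (adjusted p = 0.0516) or injury-activated replicate 1 (0.0669) or 2 (0.0815). Lif was lower than in PBS-perfused cells by -1.21 ± 0.17 in unperfused and -1.76 ± 0.17 in injury-activated cells (limma adjusted p = 4.28e-04 and 1.91e-05). It was lower in injury-activated than in unperfused cells by -0.54 ± 0.17 (limma adjusted p = 0.0180), lost without unperfused replicate 1 (-0.37, adjusted p = 0.102) or injury-activated replicate 1 (0.114) or 2 (0.0939). Lif was less abundant than Il6 in PBS-perfused and unperfused libraries, at 0.161 to 0.431 times, and more abundant in injury-activated ones, at 1.197 and 1.232 times.

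Receptor subunits for these cytokines did not follow 1 pattern. Il6st, the shared subunit, was at 31.8 and 25.1 FPKM in PFA-perfused, 218 and 74.2 in PBS-perfused, 119 and 107 in unperfused and 25.8 and 25.1 in injury-activated cells. Lifr, the LIF-binding subunit, was at 13.1 and 16.3 in PFA-perfused, 13.9 and 8.89 in PBS-perfused, 88.2 and 147 in unperfused and 10.4 and 9.07 in injury-activated cells. Unperfused cells stood apart for Lifr, by 2.88 ± 0.30 over PFA-perfused and 3.24 ± 0.30 over PBS-perfused cells, and injury-activated cells were lower than unperfused ones by -3.42 ± 0.30. Il6ra, the IL-6-binding subunit, reached 2.27 and 3.99 FPKM in PBS-perfused cells and at most 0.557 elsewhere. Of the 7 tested receptor genes, 5 were called higher in PBS-perfused than in PFA-perfused cells, 3 in unperfused and 1 in injury-activated cells, and none lower (5, 5 and 1 with trimmed mean scaling). The shares of all tested genes were 17.8, 17.4 and 26.1% higher and 46.2, 56.3 and 47.3% lower.

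Of 12 genes that carry or restrain gp130 signals, 9 were called higher and 2 lower in PBS-perfused against PFA-perfused cells, 6 and 2 in unperfused against PFA-perfused cells, and 0 and 6 in injury-activated against PFA-perfused cells (2 and 2 with trimmed mean scaling). The shares of all tested genes were 17.8, 17.4 and 26.1% higher and 46.2, 56.3 and 47.3% lower. The 6 lower after injury were thus near the share of all genes. Stat3, the transcription factor downstream of gp130, was at 28.5 and 42.0 FPKM in PFA-perfused, 488 and 320 in PBS-perfused, 322 and 314 in unperfused and 12.7 and 13.1 in injury-activated cells. Socs3, a feedback inhibitor induced by STAT3, was at 3.36 and 2.28, 27.3 and 45.1, 8.05 and 10.5, and 1.76 and 1.48 FPKM in the same order. Pim1, a kinase induced by STAT signals, was highest in unperfused cells, at 68.2 and 120 FPKM, followed by PBS-perfused cells at 27.9 and 44.0. It was at most at 1.19 in the other 4 libraries. In injury-activated against unperfused cells 7 of 12 were called lower (29.3% of all genes) and none higher (40.8%), led by Pim1 at -5.52 ± 0.33 and Stat3 at -4.52 ± 0.28.

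Other cytokines did not follow 1 pattern, and some were highest in PBS-perfused cells, some after injury and some in fixed cells. Tslp was highest in unperfused cells, at 2.65 and 4.73 FPKM. Of 20, 16 were tested, and 8 were called higher (17.8% of all genes) and 3 lower (46.2%) in PBS-perfused against PFA-perfused cells. Clcf1, another gp130 ligand, was at 81.4 and 78.3 FPKM in PFA-perfused, 257 and 455 in PBS-perfused, 116 and 91.6 in unperfused and 10.99 and 8.81 in injury-activated cells. Csf3, the neutrophil growth factor G-CSF, was listed at 0 in PFA-perfused cells, at 26.4 and 8.99 in PBS-perfused cells and at most at 0.0972 elsewhere. Ctf1, cardiotrophin, was highest in PFA-perfused cells, at 42.0 and 33.7 FPKM against 9.22 and 8.85 in PBS-perfused and at most 0.218 in the other groups. Another 3 led after injury: Spp1 (osteopontin) at 228 and 243 FPKM, Il33, an alarmin, at 123 and 105, and Kitl, stem cell factor, at 45.1 and 44.4, against at most 1.77, 10.03 and 7.76 in the other 6 libraries. In injury-activated against unperfused cells 6 of the 16 were called higher and 4 lower, near the shares of all tested genes (40.8 and 29.3%). The largest rises were those of Spp1 by 7.73 ± 0.27 and Il33 by 5.71 ± 0.21.

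Ptx3 was the member with the largest difference between injury-activated and both other unfixed groups. It was at 0.128 and 0 FPKM in PFA-perfused, 234 and 269 in PBS-perfused, 67.5 and 107 in unperfused and 0.571 and 0.577 in injury-activated cells. PBS-perfused and unperfused libraries were more than 60 FPKM above all others. Ptx3 rose over PFA-perfused cells by 7.89 ± 0.25 in PBS-perfused and 6.34 ± 0.25 in unperfused cells (limma adjusted p = 8.51e-07 and 5.47e-07). It was lower in unperfused than in PBS-perfused cells by -1.55 ± 0.25 (limma adjusted p = 8.21e-04). In injury-activated cells it was lower than in PBS-perfused cells by -7.32 ± 0.25 and than in unperfused cells by -5.77 ± 0.25 (limma adjusted p = 2.73e-07 and 5.35e-07). The difference of injury-activated from PFA-perfused cells was 0.57, with a 95% interval of 0.01 to 1.12 and limma adjusted p = 0.0610. It was called with a pseudocount of 0.1 (2.16, adjusted p = 7.77e-04), with trimmed mean scaling (0.0435), with quantile normalization (0.0157) and without unperfused replicate 1 (0.0177) or 2 (0.0179).

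**Figure D3:**
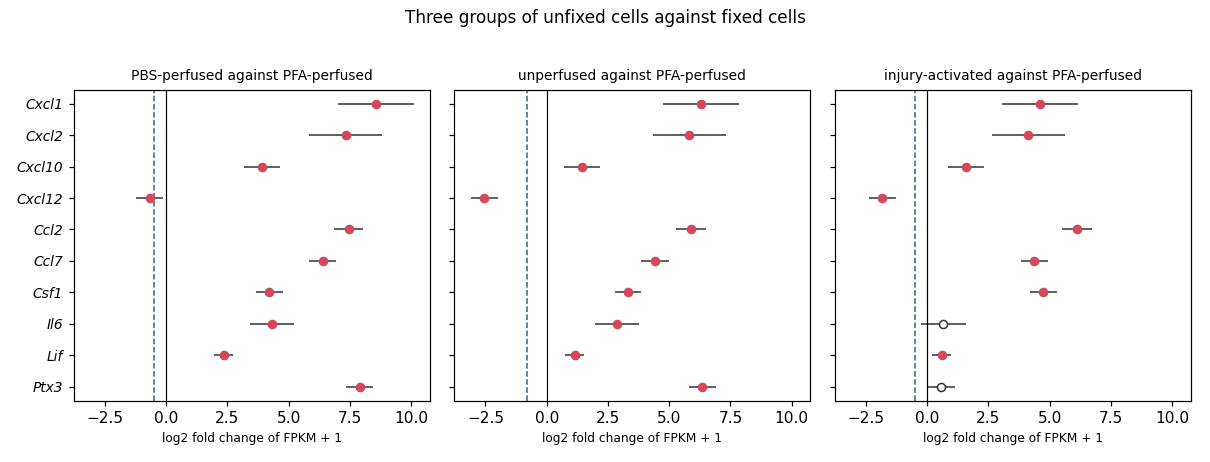
Log2 fold change of each member in the 3 unfixed groups against PFA-perfused cells, with 95% intervals, filled points for calls at adjusted p under 0.05 and a dashed line at the median of all 12515 genes. Cxcl12 lies to the left of 0 in each panel, and in injury-activated cells Il6 and Ptx3, at 0.66 and 0.57, are open points. The PFA-perfused values of Cxcl2 are 0, so its size here depends on the pseudocount. The same holds for members near 0 there, such as Ptx3 and Il6, at most at 0.128 and 0.147 FPKM.

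**Figure D4:**
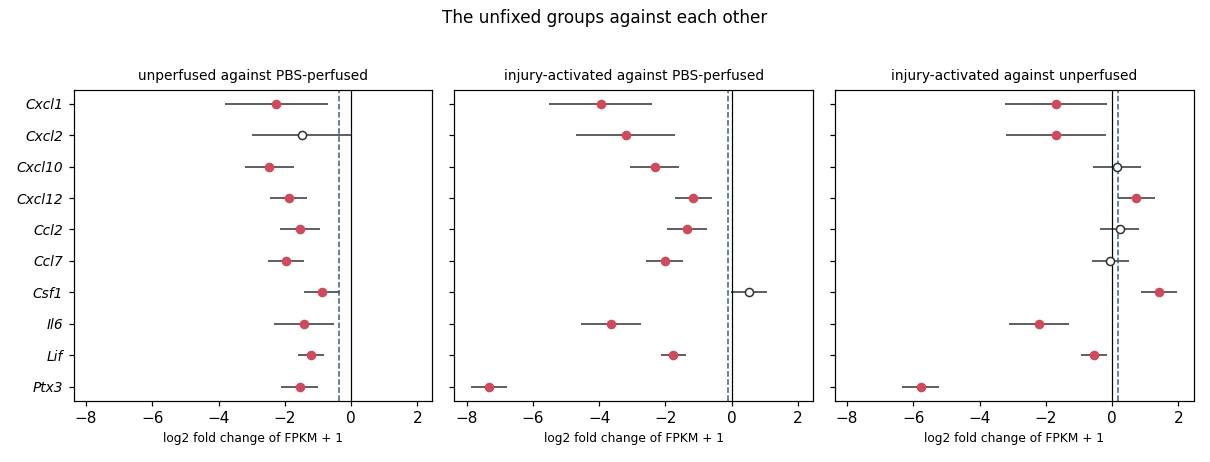
Log2 fold change of each member between the 3 unfixed groups, with 95% intervals, filled points for calls at adjusted p under 0.05 and a dashed line at the median of all genes. In injury-activated against unperfused cells Ptx3 lies at -5.77 and Il6 at -2.22, while Csf1 at 1.42 and Cxcl12 at 0.73 lie on the other side of 0.

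Genes of the NF-kB pathway and of cytokine RNA control were also high in PBS-perfused cells. Of 18, 16 were called higher (17.8% of all genes) and 1, Zfp36l2, lower (46.2%) in PBS-perfused against PFA-perfused cells, with a median of 2.88. Nfkbiz, an NF-kB cofactor for Il6, was at 7.08 and 6.61 FPKM in PFA-perfused, 141 and 271 in PBS-perfused, 39.7 and 44.5 in unperfused and 8.68 and 7.59 in injury-activated cells. Nfkb1, a subunit of the factor, was at 37.4 and 36.9, 508 and 570, 297 and 294, and 21.6 and 19.9 FPKM in the same order. Zfp36 encodes tristetraprolin, which binds AU-rich RNA and speeds its decay, and was at 15.7 and 13.2, 207 and 328, 85.8 and 45.8, and 22.0 and 19.6 FPKM. Tnfaip3, a feedback inhibitor of NF-kB, was at 4.32 and 0.385 FPKM in PFA-perfused and 48.7 and 34.6 in PBS-perfused cells. Cebpd, a C/EBP factor, was at 104 and 68.9 FPKM in PFA-perfused, 742 and 686 in PBS-perfused, 4.48 and 6.64 in unperfused and at most 0.131 in injury-activated cells. In unperfused against PFA-perfused cells 10 of the 18 were called higher and 4 lower (12 and 3 with trimmed mean scaling). The shares of all tested genes were 17.4 and 56.3%. In injury-activated against unperfused cells 13 were called lower (29.3% of all genes) and 1, Irf1, higher (40.8%). With that scaling 14 were called lower and none higher. In injury-activated against PFA-perfused cells 2 of the 18 were called higher (26.1% of all genes) and 9 lower (47.3%). The 9 lower were thus near the share of all genes, and the counts became 7 and 6 with that scaling.

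The AU-rich element that tristetraprolin recognises is part of some members' messages. In GENCODE M21 3′ UTRs on GRCm38, 1 transcript a gene, the core ATTTA occurred 11 times in the 734 bases of Cxcl2, 7 times in the 592 of Cxcl1 and 6 times in the 427 of Il6. That is 15.0, 11.8 and 14.1 per kilobase, at percentiles 99.7, 99.5 and 99.7 of 19469 genes, whose median was 1.32. Cxcl12 had 4 in 5188 bases, at percentile 39.6, and the other 6 members lay between percentiles 61.0 and 90.2. The full nonamer TTATTTATT was present in 3 of the 10 members, in Cxcl2 at 4 sites and in Cxcl1 and Lif at 2 each, and in 7.50% of all genes. These counts were chosen after the values were seen, and describe letters only. The first nonamer of each is shown with 8 bases on either side, with the nonamer in capitals, at chr5:90892617-90892641 in Cxcl1, chr5:90905318-90905342 in Cxcl2 and chr11:4272041-4272065 in Lif, all in the 3′ UTR on the plus strand.
Cxcl1 3′ UTR: ttatgtatTTATTTATTccacaaag
Cxcl2 3′ UTR: gagttcacTTATTTATTtatctatg
Lif 3′ UTR: aggggcctTTATTTATTatttaaaa

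Genes whose levels followed each member most closely were found by Pearson's r of log2(FPKM + 1) over the 8 libraries. These r values describe 4 groups of 2 libraries that share their handling and depth, and are not independent evidence of a link. For Cxcl1 they were Gdnf (r = 0.983), Csrnp1 (0.9795) and Etf1 (0.972), and for Cxcl2 they were Csrnp1 (0.990), Hmox1 (0.984) and Sertad1 (0.981). Csrnp1, a nuclear protein induced early after stimulation, thus stood near both. Cxcl10 was followed most closely by Gadd45b (0.984), Areg (0.981) and Cxcl3 (0.977). Ccl2 was nearest to Dusp6 (0.989), Emp1 (0.989) and Dnaja1 (0.989), and Ccl7 to Cars (0.995), Hspa8 (0.990) and Klf6 (0.990). Dnaja1 and Hspa8 encode chaperones, and Hspa8 had group means of 491 FPKM in PFA-perfused, 3653 in PBS-perfused, 1948 in unperfused and 2289 in injury-activated cells.

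Csf1, with its top level after injury, was near to Ubash3b (0.993) and Rbbp8 (0.992). Il6 was nearest to Sesn2 (0.989), Tnfaip2 (0.985) and Bmp2 (0.984), and Lif to Nfkbia (0.991), Has1 (0.989) and Spty2d1 (0.989). Nfkbia encodes the inhibitor that holds NF-kB in the cytoplasm and is itself an NF-kB target. Ptx3 was nearest to Myc (0.995), Sbno2 (0.995) and Tgif1 (0.995), with Myc at group means of 8.69, 129, 99.5 and 10.7 FPKM in the same order. For Cxcl12 the nearest genes were Gm15421 (0.991), Ipo13 (0.990) and Phc3 (0.989), and Phc3, a Polycomb protein, had group means of 58.9, 29.5, 5.06 and 10.5 FPKM.

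Markers of other cell types were not level between the groups in which the members differed. Of 12 endothelial markers, 11 were called higher in PBS-perfused than in PFA-perfused cells (17.8% of all genes) and 10 lower in unperfused than in PBS-perfused cells (36.5%). Their summed level was 68.5 to 79.2 FPKM in PFA-perfused, 171 to 261 in PBS-perfused, 35.7 to 49.9 in unperfused and 10.1 to 10.7 in injury-activated libraries. Of 10 tested fibro-adipogenic markers, 6 were called higher (17.8% of all genes) and 2 lower (46.2%) in PBS-perfused than in PFA-perfused cells. That list summed to 862 to 1404, 644 to 755, 903 to 1139 and 126 to 154 FPKM in the same order of groups. A few abundant genes carried that sum, so it fell between these 2 groups although most tested markers rose. Dpt was at 633 and 318 FPKM in PFA-perfused and 69.4 and 260 in PBS-perfused cells. Dcn rose from 5.43 and 2.71 to 44.8 and 48.7. Tenocyte markers summed to 5.004 to 14.4, 59.7 to 112, 53.6 to 151 and 231 to 248 FPKM. Tnc alone made up most of that sum in unperfused cells, at 130.5 and 41.4 FPKM, and in injury-activated cells, at 127 and 173. It was at 16.4 and 12.7 in PBS-perfused cells. Of the 7 tenocyte markers, 1 was called higher (13.1% of all genes) and 3 lower (36.5%) in unperfused than in PBS-perfused cells. Mural markers summed to 526 to 580, 176 to 232, 121 to 130 and 45.4 to 55.6 FPKM and glial markers to 192 to 312, 156 to 163, 60.2 to 76.7 and 51.8 to 53.7 FPKM. Single genes made up most of these sums in PFA-perfused cells, Notch3 at 433 and 386 FPKM and Pmp22 at 277.5 and 163.5. The endothelial sum there was mostly Tek, at 46.55 and 50.9 FPKM. Neutrophil markers summed to 0.246 to 11.7, 20.8 to 26.0, 0.997 to 1.18 and 0.331 to 0.515 FPKM. In PBS-perfused against PFA-perfused cells, 6 of 7 tenocyte, 4 of 5 tested neutrophil, 2 of 8 mural and 0 of 6 tested glial markers were called higher (17.8% of all genes). Called lower were 1, 0, 3 and 1 of them (46.2%). The part of these cells in the difference between PBS-perfused and other cells was not tested. In unperfused against PFA-perfused cells none of the 12 endothelial markers was called higher (17.4% of all genes) and 5 lower (56.3%). That split became 1 and 2 with trimmed mean scaling and 4 and 1 with quantile normalization.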

How the data were processed

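RNA of sorted satellite cells was amplified with SMART-Seq v4 and fragmented before library preparation, per the labels' protocols. The deposited table gives 1 value per gene and library. Its header names no unit, and the values were taken as FPKM computed by the authors, since the submitters' processing notes name STAR 2.5.3a, StringTie 1.3.3, R 3.4.1 and the mm9 build. The notes give no order or settings of these tools, and 2 sequencers are named without saying which libraries each read.

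Values were transformed as log2(FPKM + 1) with a pseudocount of 1. The filter kept 12515 of 24328 genes, those that reached 1 FPKM in 2 or more libraries, and 3828 genes were at 0 in every library. All 8 libraries entered 1 limma fit (version 3.58.1, R 4.3.3, intensity trend) with 6 contrasts and Benjamini-Hochberg adjustment over all genes tested, two-sided. The fit was tested on simulated data in which a small set of genes was changed in PBS-perfused cells alone. In the real data far more genes were called, so that test does not cover their conditions. Groups were taken from the labels. The members, gene lists and comparisons were chosen with earlier results of these data known. Genes outside the members were named by rule: up to 4 called genes a list and comparison by size of change, each receptor with a group mean of 1 FPKM or more, and the sort's markers. Other genes named with values, and the search for AU-rich elements, were chosen after the values were seen. Nearest genes were the 3 with the highest Pearson's r, of which 1 is not reported here. Alternatives were a replicate block, fitting the compared groups alone, no filter or one at 5 FPKM, a pseudocount of 0.1, trimmed mean scaling, quantile normalization and leaving out each library. Promoters came from RefSeq on GRCm38.p6 and 3′ UTRs from GENCODE M21 on GRCm38, and no coordinate was converted from mm9. No counts were used, so no counting interval is given.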

Additional observations from a re-analysis of the deposited data

How the results depend on the processing

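Of 897 refits of a member's fold change, 838 kept direction and call, 44 lost the call, 10 gained it and 5 turned sign. The 5 were all in injury-activated against unperfused cells and none was called: Cxcl10 at -0.13 with quantile normalization and -0.0392 without injury-activated replicate 2 (leaving out a library gave -0.0392 to 0.33), Ccl2 at -0.22 with quantile normalization, and Ccl7 at 0.0603 without unperfused replicate 1 and 0.00589 without injury-activated replicate 2 (leaving out a library gave -0.17 to 0.0603). For PBS-perfused against PFA-perfused cells, the 1 member called lower became 0 with only the 2 groups fitted, with no filter and with trimmed mean scaling, and 0 to 1 on leaving out a library. For injury-activated against PBS-perfused cells, members called higher went from 0 to 1 with trimmed mean scaling. For injury-activated against unperfused cells, members called higher went from 2 to 1 with quantile normalization (1 to 2 on leaving out a library), and members called lower from 5 to 3 with no filter (2 to 5 on leaving out a library). Leaving out a library gave 7 to 10 members lower in unperfused against PBS-perfused cells and 6 to 8 higher in injury-activated against PFA-perfused cells. The lone library was then assumed to vary like the other groups. Over all genes, trimmed mean and quantile scaling gave 3885 and 3906 higher in unperfused against PFA-perfused cells (4542 lower with quantile), 2786 and 2793 higher in unperfused against PBS-perfused cells (3036 lower with trimmed mean), and trimmed mean scaling gave 4997 higher in injury-activated against PFA-perfused cells. With the replicate number as a block, 4 members in place of 5 were called lower in injury-activated against unperfused cells (Cxcl1 adjusted p = 0.0550), and no other member call changed. Same-numbered libraries deviated together with correlations of -0.047 to 0.117, so the numbers were not taken to pair the libraries. The cause of these changes was not tested. With FPKM alone, the depth that limits low values such as Lif, Il6 and Cxcl10 in PFA-perfused cells is unknown.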
